A study of Mus musculus with 7 samples.

Results

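Ribosome biogenesis genes are the genes whose products transcribe ribosomal RNA, modify it and assemble it into ribosomal subunits. The 32 genes described here were taken by symbol out of 32285 in the count tables, from a list of symbols drawn up with earlier results of these data known, and all 32 were present and were tested in every comparison. By role they are 6 genes of RNA polymerase I transcription (Polr1a, Polr1b, Polr1c, Polr1d, Ubtf and Tcof1), 3 nucleolar scaffold genes (Npm1, Ncl and Nolc1), 3 of the box C/D ribonucleoprotein (Fbl, Nop56 and Nop58), 4 of the box H/ACA ribonucleoprotein (Dkc1, Gar1, Nhp2 and Nop10), 5 of small subunit assembly (Wdr43, Heatr1, Rrp9, Bysl and Rrp12) and 11 of large subunit assembly (Pes1, Bop1, Wdr12, Rrs1, Rpf2, Nop2, Nip7, Nop16, Noc2l, Gnl3 and Ddx21). All are protein-coding genes and they lie on 18 mouse chromosomes (GRCm38), with at most 4 on any one.

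In the nucleolus, RNA polymerase I copies the ribosomal DNA repeats into 1 long precursor RNA. Small nucleolar ribonucleoproteins guide the methylation of its ribose units (box C/D) and the change of uridine to pseudouridine (box H/ACA), and assembly factors fold and cut it into the small and the large subunit. Neural crest cells are known for their sensitivity to a loss of this pathway: mutations of Tcof1, Polr1b, Polr1c and Polr1d cause Treacher Collins syndrome, a craniofacial disorder, so these 4 genes are named in each class below, whatever they did.

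The study profiled sorted cells of the neural crest lineage by droplet single-cell RNA sequencing, to follow their development in the pharyngeal arches and heart with and without Tbx1. All mice had a mixed Swiss-Webster background and carried Wnt1-Cre/+ and ROSA-EGFPf/+, so EGFP marks every cell in which Wnt1-Cre was active and its descendants, dorsal neural tube included, and live EGFP-positive cells were sorted. Of 7 libraries, 4 were controls without another allele: 1 at E8.5 (anterior part of the embryo), 1 at E9.5 (pharyngeal apparatus with heart) and 2 at E10.5 (arches without the first, with heart). The other 3, 1 at E9.5 and 2 at E10.5, are called Tbx1 null in the titles, and the study describes their embryos as Tbx1-/-, whereas the genotype entry of their labels reads Tbx1+/-. Each library pooled embryos. Tbx1 itself was low in these cells, at 0.545 CPM in control at E8.5 and at 0.686 in control and 0.610 in null at E9.5. At E10.5 it was at 5.14 and 3.76 CPM in control and 2.97 and 2.67 in null libraries, without overlap. These levels cannot settle which genotype entry is right. Chromium kit version 2 was used at E8.5, version 3 for null E9.5 and null E10.5 replicate 1, and version 3.1 for the others.

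Library depth ranged from 140264662 to 234844769 UMIs, and 5587 to 9557 cells per library were kept, with medians of 14856 to 22882 UMIs. Cells were put into classes by marker UMIs: mesenchymal (Twist1, Prrx1 and Prrx2), Sox10, neural progenitor (Sox1, Sox2 and Sox3) and neuronal (Tubb3 and Stmn2). UMIs, the counted molecules, were summed per library and class and are given as CPM, counts scaled by the class's own total in that library, so that libraries and not cells are the replicates, and nothing says that pooled embryos of a group were from separate litters. Of these libraries, null E10.5 replicate 2 stood apart: 722 of its cells were mesenchymal, against 2638 to 6375 in the other E9.5 and E10.5 libraries, and 49.7% of its kept cells were neuronal. The 722 depend on the class rules: 30.4% of its kept cells met several and were left out, against 3.77% to 14.6% in those other libraries. With the neuronal rule at 10 UMIs 9.31% were. Cells that met the mesenchymal rule held a median of 4 Tubb3 and Stmn2 UMIs there and 0 in the others. The mesenchymal cells of null E10.5 replicate 2 also held 48.1 CPM of the neuronal genes Elavl3, Dcx and Nefm, against 3.18 to 10.1 in the others, so each comparison that uses it is also given without it. At E8.5 the cells of the neuronal class held 18.2 CPM of these 3 genes, against 136 and 214 at E9.5 and 850 to 1924 at E10.5, and that class is named by its rule only.

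Members that move together may share promoter sequence, so the 300 bases around each transcription start in RefSeq (GRCm38.p6) were searched for CACGTG, an E-box whose letters read the same on both strands and which is the textbook binding sequence of Myc and Max. A promoter entry was found for 26 of the 32 genes. The motif occurred in 4 of them (15.4%), against 8.09% of 27025 genes with an entry, so 22 of the members with an entry did not hold these letters in this window. The windows of the 4 are shown because these genes can be followed through the results below; each line has 30 bases on the gene's strand, with the motif in capitals.
Nop2, chr6:125131811-125131840, plus strand, starting 60 bases before the start: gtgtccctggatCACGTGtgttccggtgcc
Rpf2, chr10:40246988-40247017, minus strand, starting 26 bases before the start (35 bases after another annotated start): aagtaatcggtaCACGTGcattcgctaagg
Pes1, chr11:3963965-3963994, plus strand, 3 bases after the start: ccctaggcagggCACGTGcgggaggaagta
Wdr43, chr17:71616220-71616249, plus strand, 18 bases after the start: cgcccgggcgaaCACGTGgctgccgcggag
A match is a description of sequence and not a measured binding site.

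Together the 32 genes took a smaller share of the UMIs of every class at E10.5 than at E9.5. In mesenchymal cells the share was 1.59% in the control and 1.55% in the null library at E9.5, and at E10.5 it was 0.911% and 0.933% in controls and 0.891% and 0.6203% in nulls. Npm1 and Ncl made up most of it, and without them the shares were 0.552% and 0.495% at E9.5 and 0.264% to 0.330% at E10.5. The stages did not overlap in either sum. In neural progenitors the share was 1.099% and 1.12% at E9.5 and 0.742% to 0.874% at E10.5, and in neuronal cells 0.984% and 1.02% at E9.5 and 0.540% to 0.665% at E10.5. Sox10 cells, which include early crest and glial precursors, held 1.35% and 1.43% at E9.5 and 0.839% to 1.11% at E10.5. Neuronal cells were the lowest of the 4 classes in each of the 6 libraries at E9.5 and E10.5, and mesenchymal cells were the highest in both E9.5 libraries. These sums are descriptions; the tests follow gene by gene.

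**Figure D1:**
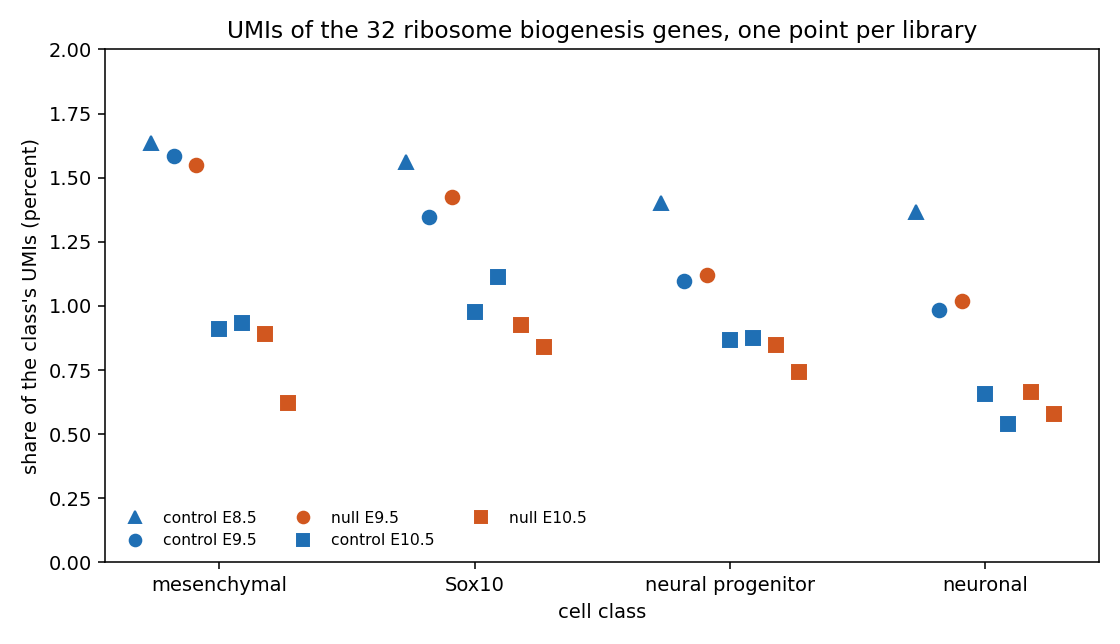
Share of all UMIs of a cell class taken by the 32 ribosome biogenesis genes together (y axis, percent) in mesenchymal, Sox10, neural progenitor and neuronal cells; each point is 1 library, coloured by genotype and shaped by stage. In every class the 4 E10.5 points lie below the 2 E9.5 points, and in mesenchymal cells they fall from 1.55% or more to 0.933% or less.

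In mesenchymal cells, 30 of the 32 genes fell from E9.5 to E10.5 and none rose. The comparison used 2 libraries at E9.5 and 4 at E10.5, with genotype as a covariate, in edgeR's quasi-likelihood test with Benjamini-Hochberg adjustment over 16144 genes. Of all genes tested 27.1% were called, 13.5% lower and 13.6% higher. The members' median log2 fold change was -1.26, against 0.06 over all genes. Every member's E9.5 and E10.5 libraries were separate on the TMM scale, 31 lower and Ubtf higher at E10.5, where 24.7% of all genes were separate and lower and 26.9% separate and higher.

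The largest falls were in large subunit assembly and in the box H/ACA ribonucleoprotein. Gnl3 (nucleostemin, chromosome 14, 31012433 to 31019152), a nucleolar GTPase of dividing and stem cells, led. Gnl3 stood at 317 (control) and 277 (null) CPM at E9.5, against 151 and 147 (control) and 114 and 90.7 (null) at E10.5. Every E10.5 library lay below both E9.5 libraries, and the fitted log2 fold change was -1.77 ± 0.197 (SE, adjusted p = 0.00106). Wdr12, which forms a complex with Pes1 and Bop1 for the large subunit, changed by -1.60 ± 0.198 (adjusted p = 0.00141). Wdr12 stood at 138 (control) and 121 (null) CPM at E9.5, against 58.6 and 67.4 (control) and 67.05 and 48.4 (null) at E10.5. Nip7, a factor of late large subunit maturation, changed by -1.58 ± 0.245 (adjusted p = 0.00321). Nip7 stood at 213 (control) and 197 (null) CPM at E9.5, against 109 and 95.4 (control) and 118 and 65.95 (null) at E10.5. For both genes the stages did not overlap, and null E10.5 replicate 2 was the lowest library. All 11 genes of the large subunit fell. Rrs1 and Rpf2, which bring the small ribosomal RNA of the large subunit into the particle, changed by -1.56 and -1.41. Nop2, a ribosomal RNA methyltransferase (chromosome 6, 125131909 to 125144753), changed by -1.50, and Nop16 by -1.43. The partners of Wdr12 changed less: Bop1 by -1.26 and Pes1 by -0.83. The helicase Ddx21 changed by -1.02 and Noc2l by -1.01. 

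Among the H/ACA proteins, Nhp2 and Nop10, small core subunits that hold the guide RNA and the enzyme in place, fell most. Nhp2 stood at 552 (control) and 527 (null) CPM at E9.5, against 234 and 271 (control) and 285 and 198 (null) at E10.5. Its change was -1.63 ± 0.216 (adjusted p = 0.00178). Nop10 stood at 502 (control) and 359 (null) CPM at E9.5, against 164 and 205 (control) and 239 and 196 (null) at E10.5, a change of -1.60 ± 0.223 (adjusted p = 0.00224). Both were clear of overlap, with the control E9.5 library highest for each. Dkc1, the pseudouridine synthase itself, changed by -1.37 and Gar1 by -1.26. The 3 C/D proteins fell together, with Nop58 at -1.48, Nop56 at -1.38 and the methyltransferase Fbl (fibrillarin) at -1.22. So did the scaffold genes, with Npm1 (nucleophosmin) at -1.52, Ncl (nucleolin) at -1.37 and Nolc1, a chaperone of the ribonucleoproteins, at -1.08. Npm1 stood at 7707 (control) and 8083 (null) CPM at E9.5, against 4522 and 4556 (control) and 4269.6 and 2506 (null) at E10.5. The null E10.5 replicate 2 value was the lowest by a wide margin.

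Small subunit factors fell unequally. Rrp9, which binds the U3 guide RNA, changed by -1.56, Bysl by -1.23 and Wdr43 by -1.23. Heatr1, a large scaffold of the early particle, changed by -0.77 and Rrp12, an export factor, by -0.70, the smallest change among the members that passed. The 4 genes with the E-box shown above, Nop2, Rpf2, Wdr43 and Pes1, lay within the range of the other members, -1.77 to 0.20. Rrp12 was sparse, at 12.7 and 13.1 CPM at E9.5 and at most 11.6 at E10.5.

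RNA polymerase I genes had the smallest median of the 6 roles (-0.84), and 2 of 6 did not pass. Polr1d and Polr1c, subunits that RNA polymerase I shares with RNA polymerase III, changed by -1.21 ± 0.218 (adjusted p = 0.00533) and -1.08 ± 0.217 (adjusted p = 0.00796). Polr1d stood at 476 (control) and 454 (null) CPM at E9.5, against 307 and 274 (control) and 333 and 226 (null) at E10.5. Polr1c stood at 119.6 (control) and 121 (null) CPM at E9.5, against 85.7 and 79.96 (control) and 95.1 and 60.97 (null) at E10.5. Both had every E10.5 library below the E9.5 libraries. Transcripts of Polr1b, a core subunit, were sparse. Polr1b stood at 12.6 (control) and 15.04 (null) CPM at E9.5, against 10.8 and 10.2 (control) and 15.4 and 8.41 (null) at E10.5, so that null E10.5 replicate 1 was the highest library before TMM scaling. Its change was -0.79 ± 0.247 (adjusted p = 0.0413). Tcof1 encodes treacle, a nucleolar protein that works with the polymerase. Tcof1 stood at 123 (control) and 93.5 (null) CPM at E9.5, against 71.7 and 94.4 (control) and 59.04 and 107 (null) at E10.5. Unscaled, the stages overlapped, since replicate 2 of each genotype at E10.5 lay between the E9.5 libraries, and the fitted change was -0.89 ± 0.229 (adjusted p = 0.0204). Polr1a, the largest subunit, was at 24.9 and 26.7 at E9.5 and 20.6 to 31.2 at E10.5, with a fitted change of -0.55 (adjusted p = 0.0611). It did pass with DESeq2, with DESeq2 size factors in edgeR, with no filter on low counts and in thinned cells. Ubtf, a factor that holds ribosomal DNA in an open state (chromosome 11, 102304560 to 102319742), had the opposite sign. Ubtf stood at 84.7 (control) and 85.4 (null) CPM at E9.5, against 131 and 121 (control) and 136 and 174 (null) at E10.5. Its fitted change of 0.20 ± 0.174 did not pass (adjusted p = 0.416).

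**Figure D2:**
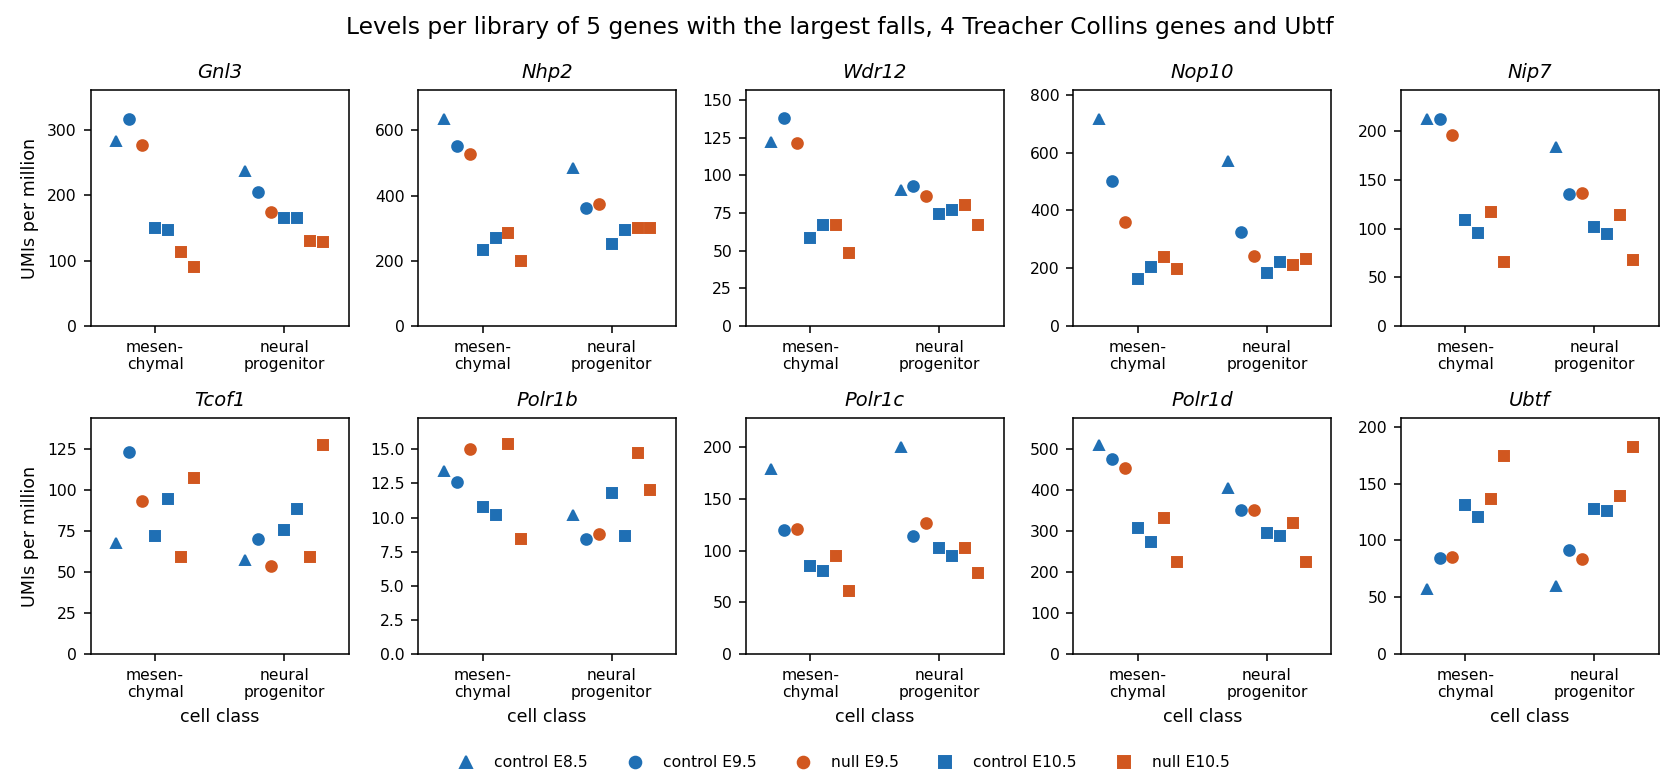
CPM (y axis, UMIs scaled by the class's total, from 0) for 10 genes in mesenchymal and neural progenitor cells; each point is 1 library, coloured by genotype and shaped by stage. For Gnl3, Nhp2, Wdr12, Nop10 and Nip7 the mesenchymal E10.5 points lie below both E9.5 points, for Tcof1 and Polr1b they overlap them, and for Ubtf they lie above.

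The size of these changes depends on the scaling. With total counts in place of TMM the median of all genes moved from 0.06 to 0.57 and that of the members from -1.26 to -0.76. Then 25 members were lower and Ubtf was higher, where 652 of all 16144 genes were lower and 6048 higher. Tcof1, Polr1b, Heatr1, Pes1 and Rrp12 no longer passed, and 90.3% of calls over all genes were higher, against 50.2% with TMM. E9.5 rests on 1 library per genotype. Without the control library the members' median was -1.21 and without the null library -1.27, and fewer members passed in both. These fits leave 1 E9.5 library, and the share of all genes called in them is not given. On the 3 control libraries alone, all of kit version 3.1, the members' median was -1.28, in a fit that also leaves 1 E9.5 library. Without null E10.5 replicate 2 the count was 30 with a median of -1.18. Proliferation was measured beside it: none of 8 proliferation genes was called, and their summed level was 1851 and 2123 CPM at E9.5 and 1825 to 2591 at E10.5, which overlap. Mesenchymal cells with 3 or more UMIs of these genes were 99.3% and 99.0% at E9.5 and 91.4% to 96.6% at E10.5, which do not. That share is not scaled to depth, and its part in the result was not tested. On the TMM scale the median change of these 8 genes was -0.45. Among cells with a low share of proliferation UMIs 30 members were lower, with a median of -1.29, whereas the limit of under 3 such UMIs, which left 30 and 63 cells in the E9.5 libraries, gave 5 and a median of -0.47.

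Other measures moved with stage in mesenchyme. The share of mitochondrial UMIs was 1.905% and 2.64% at E9.5 and 2.95 to 4.49% at E10.5, which do not overlap, and in Hox 3 mesenchyme it was 1.900% and 3.07% at E9.5 and 2.89 to 4.34% at E10.5 and in progenitors 1.99% and 3.002% at E9.5 and 2.22 to 3.81% at E10.5, which do. Of 10 genes of the dissociation stress response 5 fell and 1 rose (Hspa1a -2.06, Junb -1.82, Jun 1.47), with a summed level of 271 and 292 CPM at E9.5 and 289 to 371 at E10.5. Of 3 endothelial genes tested 2 rose (Pecam1 2.27, Kdr 1.79), with a summed level over 4 genes of 0.838 and 0.866 CPM at E9.5 and 1.997 to 7.67 at E10.5, and of 3 epithelial genes 2 rose (Epcam 1.03, Krt18 0.81), with 17.1 and 17.2 CPM at E9.5 and 25.5 to 63.3 at E10.5. Of 4 cardiomyocyte genes 1, Nkx2-5, rose (2.52), and their sum, 15.2 and 27.5 CPM at E9.5 and 3.03 to 37.1 at E10.5, overlapped. The neuronal genes Elavl3, Dcx and Nefm together held 4.26 and 3.18 CPM at E9.5 and 7.72 to 48.1 at E10.5, and in Hox 3 mesenchyme 4.796 and 5.86 CPM at E9.5 and 10.4 to 50.8 at E10.5, without overlap in either. No blood gene was called, and at most 2 genes of the endothelial, epithelial, cardiomyocyte or blood list were at 0 in a library. With a limit of 5% mitochondrial UMIs and 200 genes 29 members were lower. The part of the other lists in the result was not tested.

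Since the E10.5 dissection left the first arch out, the comparison was repeated in mesenchymal cells with a UMI of Hoxa3, Hoxb3 or Hoxd3, genes of the caudal arches. Here 26 of 32 members fell, against 10.5% lower of all 13865 genes, with a median of -1.07 against 0.08. Gnl3 came first at -1.51 ± 0.1805 (adjusted p = 0.000521), followed by Nop10 at -1.40, Nhp2 at -1.39, Wdr12 at -1.38 and Nip7 at -1.37. Gnl3 stood at 296 (control) and 230.2 (null) CPM at E9.5, against 149.7 and 149 (control) and 103 and 89.4 (null) at E10.5. Nop10 stood at 486 (control) and 314 (null) CPM at E9.5, against 163 and 202 (control) and 227 and 194 (null) at E10.5. The stages were clear of overlap in both. Nhp2 stood at 505 (control) and 445 (null) CPM at E9.5, against 223 and 266 (control) and 263 and 194 (null) at E10.5. Wdr12 stood at 130.00 (control) and 105 (null) CPM at E9.5, against 57.9 and 68.1 (control) and 60.3 and 48.4 (null) at E10.5. Nip7 stood at 197 (control) and 171 (null) CPM at E9.5, against 103 and 93.1 (control) and 108 and 64.1 (null) at E10.5. These too were lower in every E10.5 library than in both E9.5 libraries. Of the Treacher Collins genes Polr1d (-0.998), Polr1c (-0.92) and Tcof1 (-0.72, adjusted p = 0.04699) passed, and Polr1b had -0.44 (adjusted p = 0.196). Pes1, Heatr1, Rrp12, Polr1a and Ubtf did not pass either. Most of the 26 members no longer passed without the control E9.5 library, and likewise without the null E9.5 library. These fits leave 1 E9.5 library, and the share of all genes called in them is not given. With total counts 21 members were lower and Ubtf was higher, where 572 of all 13865 genes were lower and 4390 higher. The median of all genes then moved from 0.08 to 0.47, and 88.5% of calls over all genes were higher, against 52.3%. Without null E10.5 replicate 2 the count was 26 with a median of -0.999. Stage cannot be told apart from the remaining differences of dissection.

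The same genes changed less in neural progenitors. Of 32 members 11 fell, against 5.36% lower and 6.22% higher of all 13460 genes, with a median of -0.47 against 0.06. In these cells Elavl3, Dcx and Nefm together held 13.3 and 13.4 CPM at E9.5 and 34.9 to 95.8 at E10.5, which do not overlap, and their part in the result was not tested. The largest change was that of Npm1. Npm1 stood at 5399 (control) and 5939 (null) CPM at E9.5, against 3750.3 and 3703 (control) and 3554 and 2597 (null) at E10.5, a change of -1.09 ± 0.225 (adjusted p = 0.00839). Nip7 changed by -0.86, Nop10 by -0.75, Gnl3 by -0.71 and Nhp2 by -0.70 (adjusted p = 0.0164 to 0.0197). Gnl3 stood at 204 (control) and 174 (null) CPM at E9.5, against 166 and 166 (control) and 129.8 and 129 (null) at E10.5. Nip7 stood at 136 (control) and 137 (null) CPM at E9.5, against 102 and 94.3 (control) and 115 and 67.9 (null) at E10.5. In each of these genes the E10.5 libraries lay below both E9.5 libraries. Nop10 stood at 326 (control) and 241 (null) CPM at E9.5, against 184 and 221 (control) and 213 and 231 (null) at E10.5. Nhp2 stood at 362 (control) and 374 (null) CPM at E9.5, against 251 and 294 (control) and 301 and 302 (null) at E10.5. The E9.5 values of all 5 were below those in mesenchyme of the same library. The others that passed were Polr1c (-0.69), Polr1d (-0.66), Rrs1, Rpf2, Nop16 and Wdr12. No member of the C/D or the small subunit group passed in edgeR, whereas DESeq2 called 15 members, with Ncl and all 3 C/D genes added, and when cells of several classes were kept Ncl, Fbl and Nop58 passed. Tcof1 (0.16, adjusted p = 0.708) and Polr1b (0.13, adjusted p = 0.716) had positive values, with overlapping stages. Tcof1 stood at 70.2 (control) and 53.4 (null) CPM at E9.5, against 75.9 and 88.3 (control) and 58.95 and 127 (null) at E10.5. With total counts, which moved the median of all genes from 0.06 to 0.40, 1 member was lower and 1 higher. Of all 13460 genes 223 were then lower and 3357 higher, so that 93.8% of calls were higher, against 53.7%. Nearly all of the 11 members no longer passed without the control or without the null E9.5 library. Those fits leave 1 E9.5 library. Without either control E10.5 library 5 members passed. The share of all genes called in these fits is not given. The count was 11 without null E10.5 replicate 2, with a median of -0.43.

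The difference between the classes was tested directly, in a fit with each library as a block that was added after the counts above were known. The change was more negative in mesenchyme than in progenitors for 31 of 32 members, against 14% of all 14739 genes (7.48% in the other direction), with a median difference of -0.85 against -0.08. Nop2 differed most, by -1.24 ± 0.141 (adjusted p = 0.000859). Nop2 stood at 55.97 (control) and 48.02 (null) CPM at E9.5, against 25.7 and 25.9 (control) and 31.8 and 19.9 (null) at E10.5 in mesenchyme. In progenitors it was at 28.7 and 30.3 at E9.5 and at 27.8 to 38.3 at E10.5, which overlap. Ddx21 (-1.06), Gnl3 (-1.06), Rrp9 (-1.05) and Tcof1 (-1.03 ± 0.118, adjusted p = 0.000859) followed. The other Treacher Collins genes differed by -0.91 (Polr1b), -0.55 (Polr1d) and -0.40 (Polr1c). Polr1a, which passed in neither class in the main fits, differed by -0.68 ± 0.122 (adjusted p = 0.00461). Ubtf, with -0.16 ± 0.0806 (adjusted p = 0.2004), did not pass. The count was 29 with total counts, where 1035 of all genes were lower and 1639 higher (61.3% of calls higher, against 34.8%). It was 31 with DESeq2 and 26 in cells with a low share of proliferation UMIs. Fewer members passed on the control libraries alone, without the control and without the null E9.5 library, fits that leave 1 E9.5 library. The share of all genes called in those fits is not given. Without null E10.5 replicate 2 the count of members was 31, with a median of -0.81. All mesenchymal cells were used in this test, and the first arch was left out at E10.5. Cells with neither Hoxa2 nor Hox 3 UMIs were 3009 of 4463 (control) and 4675 of 6281 (null) mesenchymal cells at E9.5. They were 817 of 2958 and 2162 of 6375 (control) and 294 of 2638 and 69 of 722 (null) at E10.5. No such test was made in Hox 3 cells, so dissection cannot be told apart from stage in this difference.

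**Figure D3:**
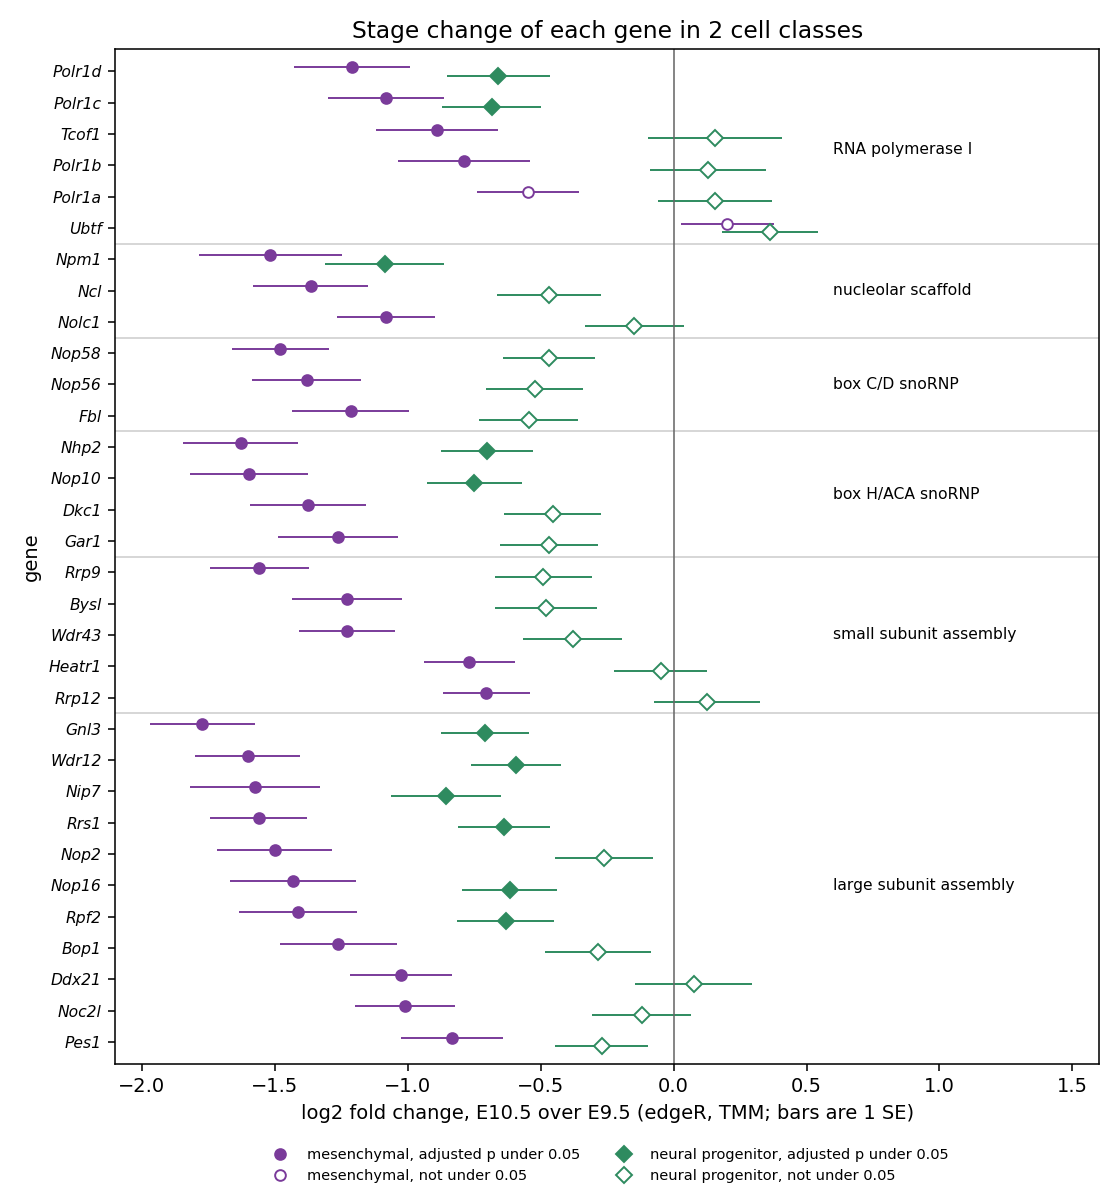
Log2 fold change of E10.5 over E9.5 (x axis, TMM scale, bars are 1 SE) of each of the 32 genes in mesenchymal cells (circles) and neural progenitors (diamonds), grouped by role; filled symbols passed the adjusted p threshold of 0.05. The mesenchymal values lie to the left of the progenitor values for all 32 genes, with 30 filled circles and 11 filled diamonds.

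Other genes of protein synthesis moved the same way in mesenchyme, in lists of the pathway chosen with earlier results known, to be read against 13.5% of all genes lower and 13.6% higher. Of 106 further ribosome biogenesis genes 86 fell and none rose (median -1.02), led by Ppan (-1.83), a large subunit factor, and Utp4 (-1.70), a small subunit factor. Of 80 ribosomal protein genes tested, 62 fell (median -0.79; Rpl38 -1.52, Rpl37 -1.34), as did 62 of 78 genes of the mitochondrial ribosome (Mrps18b -1.48, Mrpl15 -1.41) and 12 of 23 translation factors (Eif2s2 -1.22, Eif2s1 -1.17). In the network of Myc, a transcription factor known for driving ribosome biogenesis genes, 3 of 10 genes fell and 3 rose, with Myc at -2.50, Mycn at -2.07, Mycl at 1.33 and Mxd4 at 1.08. Of 14 p53 target genes 3 fell and 2 rose, with Aen at -1.35, Bax at -0.86, Trp53inp1 at 2.40 and Plk2 at 1.45, so no direction is read from that list. In the difference between mesenchyme and progenitors 11 of 80 ribosomal protein genes were lower (median -0.12), near the background of 14% of all genes and their median of -0.08, and 95 of the 106 further biogenesis genes were lower (median -0.64), as were 55 of 78 genes of the mitochondrial ribosome (median -0.34) and 12 of 23 translation factors (median -0.33).

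Within libraries, neuronal cells held less of these transcripts than neural progenitors. The class is named by its rule and was not limited to postmitotic neurons. At E9.5 it held 76.4 (control) and 110 (null) CPM of Elavl3, against 4.40 and 4.69 in progenitors. The progenitor gene Hes5 stood at 245 and 196 CPM in it, against 315 and 279 in progenitors. Of its cells 74.6% and 71.2% at E9.5, and 72.7% in null E10.5 replicate 2, had 3 or more proliferation UMIs. In 6 pairs, 28 of 32 members were lower and none was higher, where 27.6% of all 13077 genes were lower and 53.8% were called. The median was -0.34 against -0.02. The same 28 were lower in 6 of 6 pairs, as were 25.4% of all genes, with 22.3% higher in all. The count was 27 without null E10.5 replicate 2, with a median of -0.34. The core polymerase subunits Polr1b and Polr1a had the largest changes. Polr1b changed by -0.63 ± 0.0914 (adjusted p = 0.000991), at 4.42 to 9.82 CPM in neuronal cells and 8.42 to 14.7 in progenitors, and was lower in all 6 pairs, with differences of -0.90 to -0.40. Polr1a changed by -0.61 ± 0.1004 (adjusted p = 0.00168), at 14.0 to 21.3 CPM in neuronal cells and 20.1 to 37.0 in progenitors. Dkc1 (-0.59), Gar1 (-0.59) and Gnl3 (-0.58) were also lower in 6 of 6 pairs. Gnl3, for example, was at 66.7 to 161 CPM in neuronal cells and 129 to 204 in progenitors, with pair differences of -1.24 to -0.31, the widest in control E10.5 replicate 2. Tcof1 was at 58.2 and 51.7 CPM in neuronal cells at E9.5 and at 42.3 to 83.3 at E10.5, and changed by -0.47 ± 0.105 (adjusted p = 0.00678). Its pairs ranged from -0.96 to -0.02. Polr1c (-0.24) and Polr1d (-0.12) passed with small differences. Bysl, Pes1, Bop1 and Rpf2 did not pass, and for each of them at least 1 pair had the opposite sign.

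**Figure D4:**
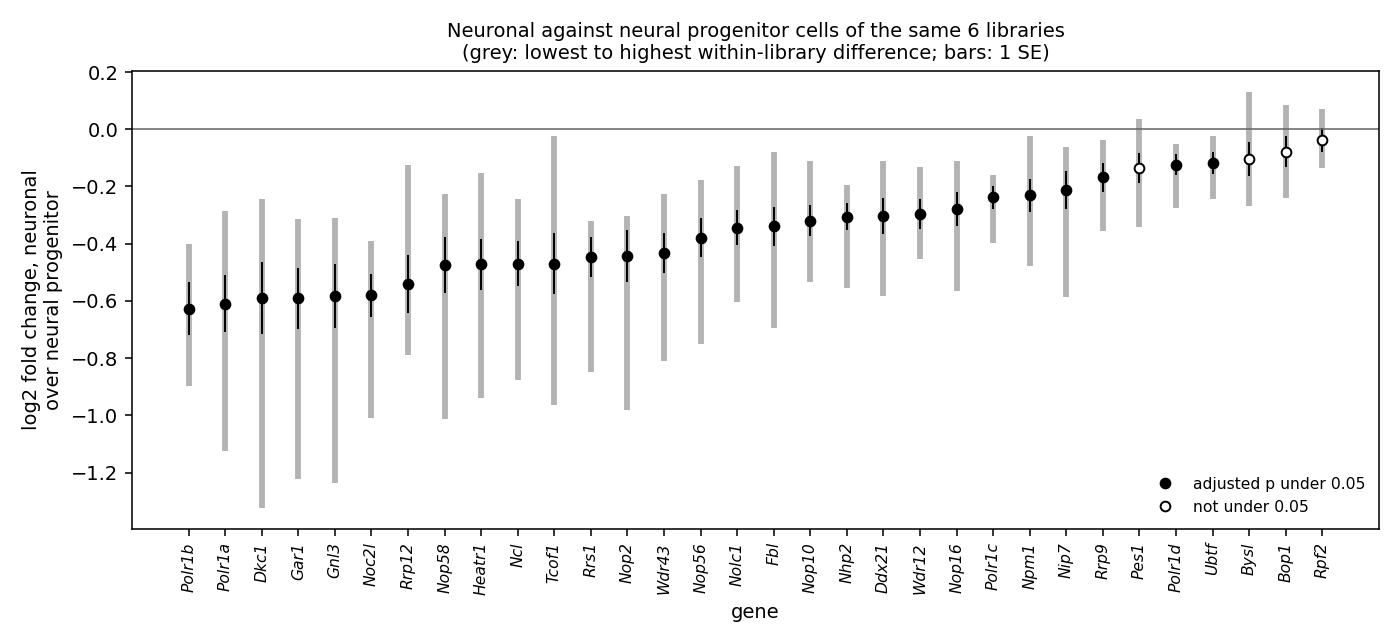
Log2 fold change of neuronal over neural progenitor cells (y axis) for each of the 32 genes (x axis, in order of the change); points are fitted values with 1 SE, filled where the adjusted p was under 0.05, and grey bars run from the lowest to the highest of the 6 within-library differences. The grey bar lies below 0 for 28 genes and crosses it for Pes1, Bysl, Bop1 and Rpf2.

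The size of this difference followed the class rule. With at least 10 in place of 3 UMIs of Tubb3 and Stmn2, an alternative chosen after seeing the data, the median was -0.79 and all 32 members were lower, and in cells thinned to 5000 UMIs it was -0.70, again with 32 lower. The share of all genes called lower is not given for the alternatives of this paragraph, so these counts cannot be set against it. When cells that met several class rules were kept, 11 members passed and the median was -0.15. On the 3 control libraries alone none passed, with a median of -0.39. Of 8 proliferation genes 6 were lower in neuronal cells (median -0.66); among cells with a low share of proliferation UMIs 29 members were lower, with a median of -0.63. Of the 106 further biogenesis genes 74 were lower and 5 higher, with Naf1 (-0.84), an assembly factor of the H/ACA particle, and Urb2 (-0.59) at the low end and Rrn3 (0.47), the initiation factor of RNA polymerase I, and Efl1 (0.31) at the high end, whereas ribosomal protein genes had 15 lower and 4 higher of 80.

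Between mesenchyme and progenitors of the same libraries 1 member passed, where 27.3% of all 13319 genes were higher and 49.9% were called. Npm1 was higher in mesenchyme by 0.38 ± 0.0922 (adjusted p = 0.009100), in 5 of 6 libraries, and 25 of 32 members had positive values. With total counts 41.2% of calls over all genes were higher, against 54.7%. DESeq2 called 3 members higher. Between Sox10 and mesenchymal cells edgeR called none of the 32 (33.1% of all genes called), none at an unadjusted p under 0.05, and between Hox 3 mesenchymal cells and those with neither Hoxa2 nor Hox 3 UMIs none (4.11% of all genes called), with 1, Polr1a, at an unadjusted p under 0.05. DESeq2 called none in either. Without null E10.5 replicate 2 these 3 comparisons gave 5 members higher (median 0.24), 2 lower and 0. All 3 fits average over E9.5 and E10.5, so class differences of opposite sign at the stages would cancel. The members' share of UMIs in Sox10 cells was below that in mesenchyme at E9.5 (1.35% against 1.59% in control, 1.43% against 1.55% in null). At E10.5 it was above it in every library (0.839 to 1.11% against 0.620 to 0.933%). Against progenitors, the stage change in mesenchyme differed for 31 members, as given above.

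No member passed between null and control libraries at E10.5 in any of 6 classes, with 2 libraries in each group. In mesenchyme 0.155% of all 15459 genes were called, and 2 members, Ddx21 and Gnl3, had an unadjusted p under 0.05 in edgeR, while DESeq2 called 1, Ddx21. Ddx21, a nucleolar helicase, was at 89.9 and 125 CPM in control and 62.4 and 69.2 in null libraries, a log2 fold change of -0.89 ± 0.252 (adjusted p = 0.2201). Gnl3 was at 151 and 147 in control and 114 and 90.7 in null libraries (-0.70 ± 0.255, adjusted p = 0.295). Groups did not overlap for either gene. Tcof1 (-0.21, adjusted p = 0.7705), Polr1b (0.05, adjusted p = 0.958), Polr1c (-0.24, adjusted p = 0.744) and Polr1d (-0.21, adjusted p = 0.775) overlapped. Over the members the median was -0.21, and SE ran from 0.218 to 0.350. Of 32 members 10 did not overlap and were lower and 1 was higher, where 25.3% and 23.2% of all genes did so. The sign of that median was set by single libraries: it was 0.11 without null E10.5 replicate 2 and -0.45 without null E10.5 replicate 1, and with total counts it was -0.03 as the median of all genes moved from -0.02 to 0.16. By the study's somite counts, the embryos of null E10.5 replicate 1 were younger than those of the other E10.5 libraries. The part of age within this stage was not tested.

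Elsewhere the medians were -0.25 in Hox 3 and -0.13 in Hoxa2 mesenchyme, -0.01 in Sox10 cells, 0.01 in progenitors and 0.26 in neuronal cells, where calls over all genes were 0.057%, 0.215%, 0.198%, 0% and 0%. In these classes 3, 1, 1, 2 and 2 members had an unadjusted p under 0.05 in edgeR, and DESeq2 called none. Without null E10.5 replicate 2 the medians were 0.03, 0.19, 0.04, 0.05 and 0.23, so that both mesenchymal values changed sign, and Ddx21 passed in Hox 3 and in Sox10 cells, where 6.52% and 3.38% of all genes then passed. Without null E10.5 replicate 1 they were -0.44 in Hox 3 and -0.44 in Hoxa2 mesenchyme, and 4 members passed in each, Gnl3, Ncl and Npm1 in both, Nip7 in Hox 3 and Ddx21 in Hoxa2 cells, as did 4.54% and 4.86% of all genes. Each of these fits leaves 1 null library, which is assumed to vary as the 2 controls do. In neuronal cells 25 of 32 members were above 0 and 11 did not overlap, all higher in null, where 20.3% of all genes were higher without overlap and 19.5% lower, with Noc2l, a factor of early large subunit assembly, highest at 0.88 ± 0.296 (adjusted p = 0.751). The neuronal cells of control E10.5 replicate 2 stood apart, with 88.4 CPM of Hes5 against 291 to 409.9 in the other E10.5 libraries, 197 CPM of Fabp7 against 334 to 622, and 21.4% of cells with 3 or more proliferation UMIs against 46.9 to 72.7%. Without that library the neuronal median was 0.02, and without control E10.5 replicate 1, which leaves only that library as control, Noc2l passed, as did 4.86% of all genes. The difference of the genotype effect between mesenchyme and progenitors passed for none in edgeR (0.668% of all genes called), with 1 at an unadjusted p under 0.05 and none in DESeq2, and for 0 without null E10.5 replicate 2.

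**Figure D5:**
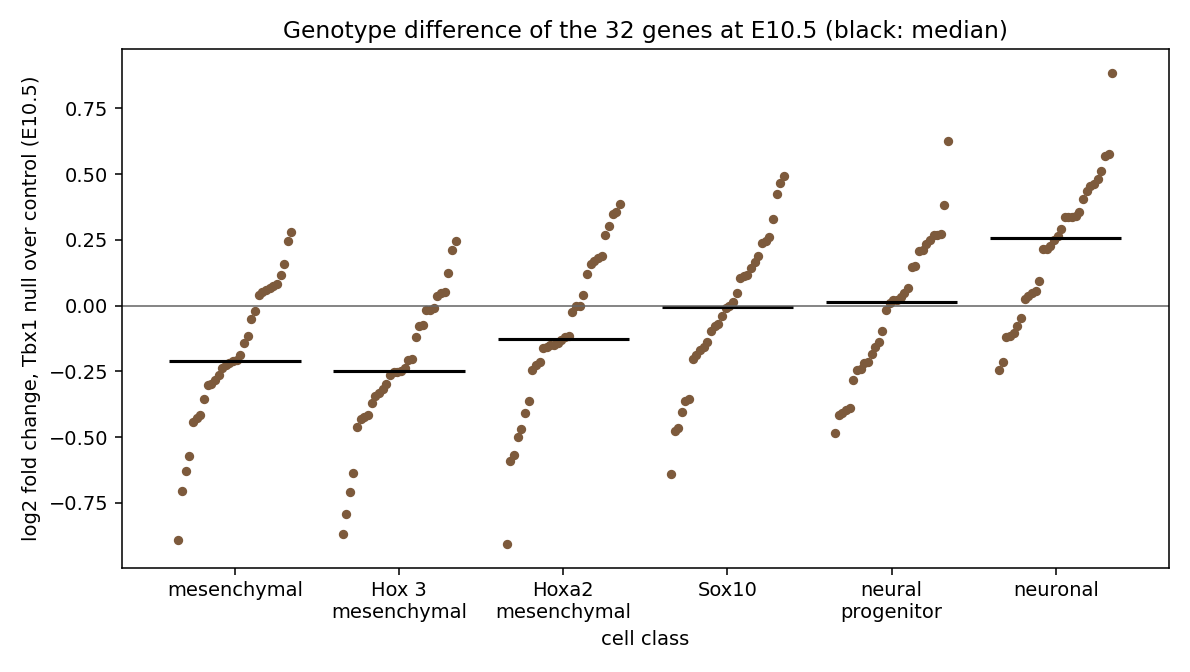
Log2 fold change of null over control at E10.5 (y axis) of the 32 genes in 6 cell classes (x axis); each point is 1 gene, in order of its value within a class, and the black line is the median. No point passed the test, and the medians run from -0.25 in Hox 3 mesenchyme to 0.26 in neuronal cells.

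The Treacher Collins genes can be followed over the other classes. In Hox 3 mesenchyme Polr1c stood at 113 (control) and 116 (null) CPM at E9.5, against 87.7 and 77.3 (control) and 92.8 and 58.7 (null) at E10.5. There Polr1d stood at 463 (control) and 415 (null) CPM at E9.5, against 313 and 279 (control) and 324 and 227 (null) at E10.5. Both were lower in every E10.5 library. Tcof1 stood at 114 (control) and 86.98 (null) CPM at E9.5, against 69.5 and 90.5 (control) and 54.4 and 105 (null) at E10.5 in Hox 3 mesenchyme, and there Polr1b stood at 10.6 (control) and 11.7 (null) CPM at E9.5, against 10.5 and 10.4 (control) and 13.4 and 8.200 (null) at E10.5. Before TMM scaling the stages of these genes overlapped. In progenitors Polr1c stood at 114 (control) and 127 (null) CPM at E9.5, against 102 and 94.8 (control) and 103 and 78.4 (null) at E10.5, and Polr1d stood at 351 (control) and 352 (null) CPM at E9.5, against 295 and 287 (control) and 318 and 224 (null) at E10.5. Again no E10.5 library reached those of E9.5. In progenitors Polr1b stood at 8.42 (control) and 8.78 (null) CPM at E9.5, against 11.8 and 8.67 (control) and 14.7 and 12.02 (null) at E10.5, which overlap. In Sox10 cells, where stage was not tested, Polr1c stood at 106 (control) and 113 (null) CPM at E9.5, against 81.4 and 73.7 (control) and 84.99 and 66.3 (null) at E10.5, and Polr1d stood at 404 (control) and 415 (null) CPM at E9.5, against 335 and 311 (control) and 347 and 276 (null) at E10.5. Among the same cells Tcof1 stood at 102 (control) and 93.2 (null) CPM at E9.5, against 65.9 and 114 (control) and 64.8 and 129 (null) at E10.5, and Polr1b stood at 10.2 (control) and 10.8 (null) CPM at E9.5, against 13.9 and 12.7 (control) and 15.3 and 11.2 (null) at E10.5. The stages overlapped for Tcof1 there. In neuronal cells, also untested for stage, Polr1c stood at 96.1 (control) and 112 (null) CPM at E9.5, against 85.5 and 68.3 (control) and 88.3 and 63.6 (null) at E10.5, and Polr1d stood at 325 (control) and 332 (null) CPM at E9.5, against 271 and 225 (control) and 276 and 208 (null) at E10.5. The pair that RNA polymerases I and III share was thus lower in every E10.5 library than in both E9.5 libraries in these 4 classes and in mesenchyme by CPM. Polr1b stood at 4.42 (control) and 4.698 (null) CPM at E9.5, against 7.25 and 5.89 (control) and 9.82 and 8.73 (null) at E10.5 in neuronal cells. Before TMM scaling every E10.5 value of this gene was thus above both E9.5 values in Sox10 and neuronal cells. In Sox10 cells that rests on 11.2 CPM in the 91 cells of null E10.5 replicate 2. With TMM factors of 1.12 there and 0.847 and 0.869 at E9.5 the stages overlap in Sox10 cells. The neuronal E9.5 values are under the 10 CPM asked for in the genotype description at E9.5. In neuronal cells Tcof1 stood at 58.2 (control) and 51.7 (null) CPM at E9.5, against 49.99 and 43.00 (control) and 42.3 and 83.3 (null) at E10.5, which overlap.

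Between mesenchyme and progenitors the log2 differences of these 4 genes were 0.33 (Tcof1), 0.29 (Polr1b), -0.06 (Polr1c) and 0.24 (Polr1d), with adjusted p of 0.171, 0.231, 0.558 and 0.0739. Between Sox10 and mesenchymal cells they were 0.03, -0.01, -0.11 and 0.03 in the same order, and none passed in either comparison. These are averages over E9.5 and E10.5, although the stage change of all 4 genes differed between mesenchyme and progenitors. At E9.5 Tcof1 was at 123 (control) and 93.5 (null) CPM in mesenchyme, against 70.2 and 53.4 in progenitors. At E10.5 neither of these classes was higher in every library. Null against control at E10.5 gave -0.21 to 0.34 for Tcof1 over the 6 classes, -0.07 to 0.40 for Polr1b, -0.27 to -0.07 for Polr1c and -0.25 to -0.10 for Polr1d, with edgeR adjusted p of 0.726 or more.

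With only 1 null and 1 control library at E9.5 there was no test between genotypes at that stage, and a log2 ratio past 0.25 is used only to describe. In mesenchyme 7 members were lower and 1 higher in the null library, against 8.47% lower and 11.7% higher of 6832 genes. Tcof1 was at 93.5 CPM in null (exact Poisson 95% interval 91.9 to 95.2) and 123 in control (121 to 125). Polr1b was at 15.04 (14.4 to 15.7) in null and 12.6 (11.9 to 13.3) in control. The intervals cover counting error only. Nop58, Gar1, Nop10, Wdr43, Nop16 and Ddx21 were the other lower members. Over the classes with enough UMIs the log2 ratio was -0.40 to -0.13 for Tcof1, 0.08 to 0.26 for Polr1b, 0.02 to 0.22 for Polr1c and -0.16 to 0.04 for Polr1d. In Hox 3 mesenchyme 13 members were lower (11.3% of genes lower, 18.4% higher), in Hoxa2 mesenchyme 8 (10.8% and 15.1%) and in Sox10 cells 5 (12% and 16.7%), and none was higher in these classes. Of 31 members with enough UMIs in progenitors 4 were lower and none higher (13.5% and 7.74%), and of 30 in neuronal cells 7 were lower and 1, Rrs1, was higher (17.4% and 13.6%). Ddx21, Nop10 and Wdr43 were lower in all 6 classes, and the kits of these libraries differed (3 in null, 3.1 in control), which cannot be told apart from genotype.

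At E8.5, in 1 library of another kit, sequencing system and dissection, some members lay above and some below their E9.5 values. Of its kept cells 36.7% met several class rules and were left out, against 13.6% (control) and 9.47% (null) at E9.5. Mesenchymal Nop10 was at 714 CPM (95% interval 703 to 726), Fbl at 533 (523 to 543) and Rrs1 at 171 (165 to 177), each above both E9.5 libraries. Tcof1, at 67.5 (64.01 to 71.1), and Ubtf, at 57.02, were below both. The share of the 32 genes at E8.5 was 1.64% in mesenchyme, 1.56% in Sox10 cells, 1.401% in progenitors and 1.37% in cells of the neuronal rule.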

How the data were processed

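Single-cell RNA-seq was analysed in 7 libraries. The authors aligned reads to mm10 and, per the labels' processing notes, used Cell Ranger 6.0.1; the deposited values are unnormalized UMI counts per gene and cell. Cells were kept if they had 1000 genes or more and no more than 10% mitochondrial UMIs, and the top Scrublet scores (scanpy 1.11.5) were removed, 0.8% of barcodes per 1000. At most 44 barcodes were shared by any pair of libraries. Classes needed 2 UMIs (3 for neuronal). Cells of several classes were left out, and progenitors met no other rule. This removed unequal shares of kept cells at E10.5, 6.30% and 3.77% in control and 14.6% and 30.4% in null libraries. The class sums of each library were tested in edgeR 4.0.16 (TMM, filterByExpr, robust quasi-likelihood, adjusted p under 0.05); printed levels are CPM by the class total, and "not overlapping" refers to TMM-scaled values. On simulated data, 48.5% of 200 genes changed 2-fold were recovered for stage in mesenchyme, 100% for neuronal against progenitor cells and 16% for genotype in mesenchyme. Genes given values per library or their range are, by rule, the 5 largest called changes in each direction and the Treacher Collins genes; further genes were chosen after their values were seen. Alternatives covered DESeq2 1.42.0, scaling, filters, class rules, thinning, proliferation and leaving out libraries. The members and gene lists were chosen with earlier results of these data known. The study fitted negative binomial models over cells; sums per library were used here because cells are not replicates.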

Additional observations from a re-analysis of the deposited data

Results flagged for a closer look

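The change from E9.5 to E10.5 differed between mesenchymal cells and neural progenitors for 31 of the 32 genes, by the test of the difference itself (edgeR, library as block, adjusted p under 0.05). All mesenchymal cells were used, and the first arch was left out at E10.5, so dissection cannot be told apart from stage in this difference. The values below are the log2 change in mesenchyme minus that in progenitors. In RNA polymerase I transcription the difference was -0.68 for Polr1a, -0.91 for Polr1b, -0.40 for Polr1c, -0.55 for Polr1d and -1.03 for Tcof1. Among scaffold genes the difference was -0.93 for Nolc1, -0.90 for Ncl and -0.45 for Npm1. In the box C/D particle the difference was -0.68 for Fbl, -0.86 for Nop56 and -1.01 for Nop58. In the box H/ACA particle the difference was -0.93 for Dkc1, -0.80 for Gar1, -0.94 for Nhp2 and -0.85 for Nop10. In small subunit assembly the difference was -0.84 for Wdr43, -0.70 for Heatr1, -1.05 for Rrp9, -0.74 for Bysl and -0.83 for Rrp12. In large subunit assembly the difference was -0.56 for Pes1, -0.97 for Bop1, -1.01 for Wdr12, -0.92 for Rrs1, -0.78 for Rpf2, -1.24 for Nop2, -0.72 for Nip7, -0.82 for Nop16, -0.89 for Noc2l, -1.06 for Gnl3 and -1.06 for Ddx21. At E10.5 Rrp12 was lower in both null than in both control libraries in mesenchyme (-0.19 on the log2 scale) and higher in both null libraries in neuronal cells (0.48), with groups that did not overlap in either class. This difference between the classes was not tested, and neither value passed within its class. Rrp12 was found by a search over all members and pairs of classes. Of all genes 25.3% were lower without overlap in mesenchyme and 20.3% higher in neuronal cells. The gene was sparse, and the neuronal value includes control E10.5 replicate 2, which stood apart.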

How the results depend on the processing

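Of 9166 values of single genes under alternatives, 8721 kept their side of the threshold, 331 lost and 97 gained a call, and 17 that were called in at least 1 of the fits compared changed sign; the signs of values called in neither were not counted. Counts of members called, lower unless said, moved as follows. With total counts stage gave 1 higher in mesenchyme, 1 higher in Hox 3 cells, and 1 lower and 1 higher in progenitors. With DESeq2 genotype in mesenchyme gave 1, and mesenchyme against progenitors 3 higher; with no filter genotype gave 1 in mesenchyme, 1 in Hoxa2 cells and 1 for its interaction. Stage in progenitors (11) gave 7 with 200 genes and 5% mitochondrial UMIs, 7 thinned, and 6 each with the neuronal rule at 10 UMIs, a low proliferation share and control libraries only. Neuronal against progenitor cells (28) gave 11 with cells of several classes and 0 on control libraries. Mesenchyme against progenitors gave 3 higher with E8.5 added and 0 with a low proliferation share, Sox10 against mesenchyme 1 higher with that share, and Hox 3 against Hox-negative cells 6 when thinned. The limit of under 3 proliferation UMIs left 30 and 63 mesenchymal and 22 and 30 progenitor cells at E9.5. It gave stage 5 in mesenchyme and 0 in progenitors, 0 for their difference, 0 higher and 7 lower for mesenchyme against progenitors, and 17 higher for Sox10 against mesenchyme. Among values called in either fit the sign changed there, as did the median named, in stage in mesenchyme for Ddx21 (0.14), Heatr1 (0.17), Nolc1 (0.027) and Rrp12 (2.96), in progenitors for Nop16 (0.15), in neuronal against progenitor cells for Ubtf (0.073), in mesenchyme against progenitors for the median (-0.22), Npm1 (-0.12), Fbl (-0.37), Gnl3 (-0.43) and Wdr12 (-0.74), in Sox10 against mesenchyme for Ncl (0.28), and in the class difference of stage for Dkc1 (0.12), Gar1 (0.40), Nip7 (0.41), Polr1d (0.046), Rpf2 (0.31) and Rrs1 (0.42). Leaving out 1 library gave 9 to 30 for stage in mesenchyme, 1 to 29 in Hox 3 cells, 0 to 14 in progenitors, 10 to 31 for their difference, 24 to 29 for neuronal cells, 1 to 5 higher for mesenchyme against progenitors, 0 to 2 for Sox10 against mesenchyme, and for genotype 0 to 1 in mesenchyme, 0 to 4 in Hox 3 and in Hoxa2 cells, 0 to 1 in Sox10 cells and 0 to 1 higher in neuronal cells. Among the medians that changed sign, values ran from -0.44 (without null E10.5 replicate 1) to 0.028 (without null E10.5 replicate 2) for genotype in Hox 3 cells, from -0.012 (without null E10.5 replicate 2) to 0.16 (without control E9.5) for Sox10 against mesenchyme, from -0.30 to 0.0055 (without null E10.5 replicate 2) for the genotype interaction, and from -0.023 (without control E9.5) to 0.24 for mesenchyme against progenitors, which was also below 0 without null E9.5. At E10.5 same-numbered control and null libraries correlated at 0.117 to 0.369 over 6 classes, in 2 pairs that share only a number. With this replicate block genotype gave 1 in Hox 3 cells and 1 higher in progenitors, and changed no other call of a member. The causes were not tested, and for stage the share of all genes called without 1 library is not given. At E9.5 precision is limited by 1 library per genotype and at E10.5 by 2.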
